A study of Mus musculus with 9 samples.

Results

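Described here are 10 genes of the embryonic mouse cortex, Parm1, Luzp2, Gas7, Cybrd1, Tac2, Cav1, Bves, Stac2, Rasl11b and B3glct. They were picked because their read counts stood far higher after knockdown of the circular RNA circSlc45a4 than in either other group of the study. They are 10 of 53379 gene IDs in the count table and 10 of 17760 genes with enough reads to be tested. The high level in the circSlc45a4 knockdown is how they were chosen, so it is given as a description with no test. The contrast of the other groups, Slc45a4 mRNA knockdown against scramble, was not named in that choice and was tested for each gene, although the same libraries served as the low side when the genes were picked.

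All libraries came from C57BL/6 embryos whose cortex was electroporated in utero on embryonic day E13.5 and collected on E15.5, 48 h later. GFP+ cells, taken as the electroporated ones, were sorted by FACS, and polyA RNA was sequenced with Illumina TruSeq after Trizol extraction. The circSlc45a4 knockdown received 3 shRNAs against circSlc45a4, the Slc45a4 mRNA knockdown 2 shRNAs against the linear mRNA of that gene, and the scramble group 1 scrambled sequence. Each group had 3 libraries, which the design text calls biological replicates, and the sources used here do not say how many embryos each one pools. The p-values measure only the spread between these libraries. The cells are a mixture at bulk level, so fewer cells of a type and less RNA per cell cannot be told apart.

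Total counts per library were between 21073174 and 45469298. The targeted gene, Slc45a4, gave 31.4, 33.6 and 34.0 CPM with scramble, 13.3, 18.5 and 17.4 CPM after knockdown of its mRNA and 25.4, 25.3 and 24.7 CPM after knockdown of the circular RNA, where CPM is the count divided by the library's TMM-scaled total and multiplied by 1e6. It fell by 1.01 ± 0.12 (log2, SE) in the mRNA knockdown (adjusted p = 1.08e-04, quasi-likelihood F test of edgeR) and by 0.39 ± 0.12 in the circSlc45a4 knockdown (adjusted p = 0.0245). The circular RNA carries no polyA tail, and polyA selection leaves it out, so no value was read for it. Xist, which coats the inactive X, read 264 to 635 CPM in the circSlc45a4 knockdown, 0.194 to 1550 CPM in the mRNA knockdown and at most 0.239 CPM in scramble. Ddx3y, a gene of the Y chromosome, read 20.01, 37.1 and 28.5 CPM in the circSlc45a4 knockdown, 0, 21.9 and 39.1 CPM in the mRNA knockdown and 28.3 to 41.6 CPM in scramble. RNA of both sexes was thus present in all circSlc45a4 knockdown libraries, and Xist stood near 0 in all of scramble, so sex and this contrast cannot be told apart. Xist was also higher in the mRNA knockdown than in scramble (adjusted p = 0.00182, edgeR), though near 0 in its replicate 3, so sex was uneven in that contrast too. The part of sex in the levels of the 10 genes was not tested.

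A circular RNA forms when a downstream splice site of a transcript is joined back to an upstream one, and many circular RNAs are made in the brain. At this stage the cortical wall holds dividing radial glia and basal progenitors beside newborn and migrating neurons. The 10 genes have different known roles. Cav1, Bves, Parm1 and Cybrd1 encode membrane proteins, Stac2 and Gas7 adaptors of the membrane and cytoskeleton, Rasl11b a Ras-like GTPase, B3glct an enzyme of protein glycosylation, Tac2 a neuropeptide precursor and Luzp2 a protein with a leucine zipper.

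In every library of the circSlc45a4 knockdown, each of the 10 genes stood above all 6 other libraries, an order that 11.6% of all genes tested also had and that follows from the choice. The lowest circSlc45a4 knockdown library exceeded the highest of the others 12.7-fold for Parm1 at one end and 1.49-fold for Stac2 at the other. The median log2 fold change over the 10 genes was 3.03 against scramble and 3.27 against the mRNA knockdown, beside medians of -0.01 and -0.02 over all genes tested. They were not the 10 largest differences of the table. Ordered by the smaller of these log2 fold changes among 11443 genes of sufficient level, Parm1 ranked 4, Tac2 5, Cav1 6, Bves 10, Cybrd1 11 and Luzp2 14, while Rasl11b ranked 38, Gas7 85, B3glct 91 and Stac2 151. Genes outside the set that ranked 1, 2 and 3 were Eppk1, Ltbp2 and Unc5b. Outside the circSlc45a4 knockdown Eppk1 and Ltbp2 had at most 10 and 8 reads per library. Their log2 fold changes against scramble are thus imprecise, with SE of 0.82 and 0.54.

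**Figure D1:**
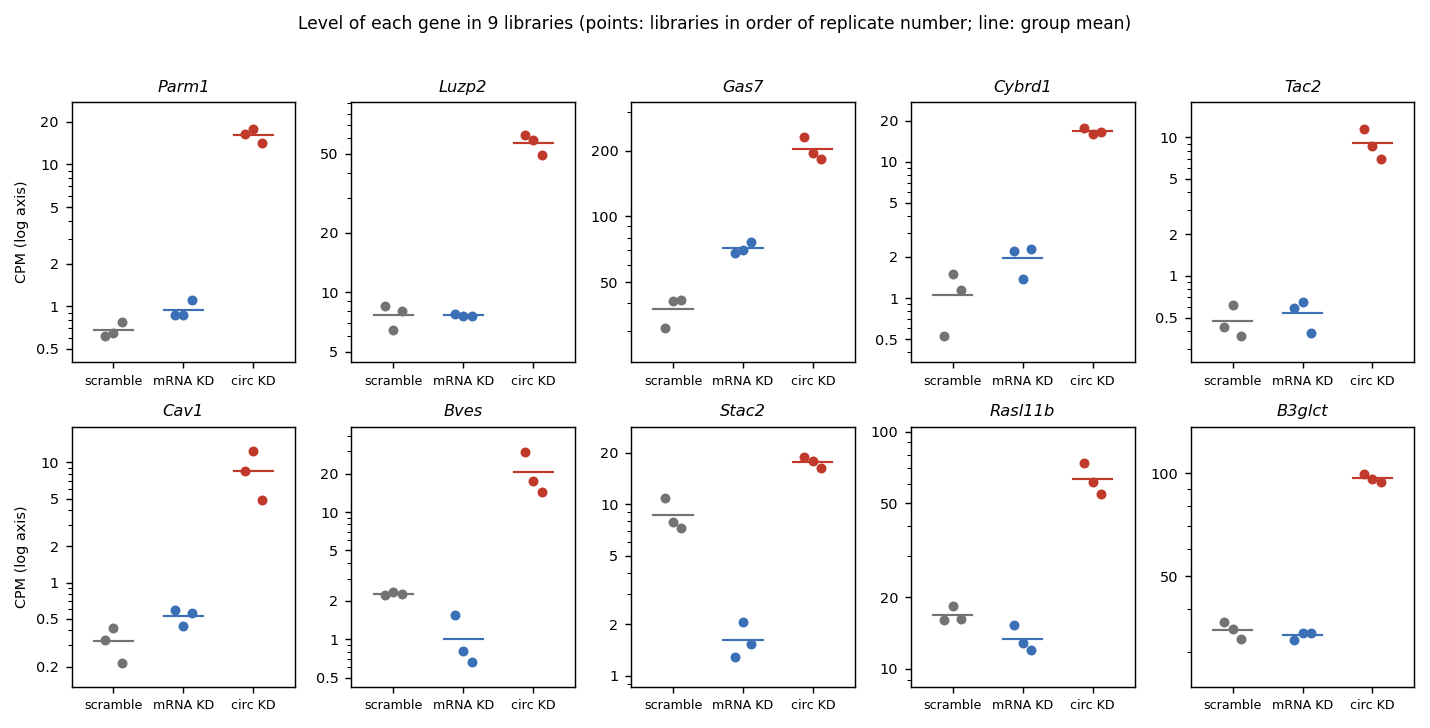
Level of each of the 10 genes in the 9 libraries, in CPM on a log axis, with scramble in grey, Slc45a4 mRNA knockdown (mRNA KD) in blue and circSlc45a4 knockdown (circ KD) in red. Points are libraries in order of replicate number and lines are group means. The red points lie above all others in every panel, nearest to scramble for Stac2, and Gas7 shows 3 separate levels.

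Gene loci are those of GENCODE M21 on GRCm38, and all but Stac2 are on the plus strand. The promoters of the genes were read from RefSeq (build GRCm38.p6), because the genes were high in the same 3 libraries. The table held 8 windows for 7 of the genes, Parm1, Luzp2, Cybrd1, Tac2, Cav1, Rasl11b and B3glct. Shown are the 250 bases before the start for the 4 windows with no base inside the annotated locus of their own gene, all on the plus strand. Overlap of the windows with other genes was not checked. Cav1 is at chr6:17306085-17306334, Tac2 at chr10:127724228-127724477, Luzp2 at chr7:54834995-54835244 and B3glct at chr5:149677980-149678229. Capitals mark the motifs searched on both strands.
Cav1: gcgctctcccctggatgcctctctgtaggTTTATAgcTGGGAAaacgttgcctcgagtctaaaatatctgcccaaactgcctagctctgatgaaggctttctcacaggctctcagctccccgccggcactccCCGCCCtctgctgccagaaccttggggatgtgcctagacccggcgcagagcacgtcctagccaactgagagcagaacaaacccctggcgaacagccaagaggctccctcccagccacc
Tac2: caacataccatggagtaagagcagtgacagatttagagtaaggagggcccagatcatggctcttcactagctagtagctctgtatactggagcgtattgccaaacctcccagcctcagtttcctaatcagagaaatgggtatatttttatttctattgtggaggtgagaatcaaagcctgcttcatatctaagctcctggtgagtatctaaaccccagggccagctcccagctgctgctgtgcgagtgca
Luzp2: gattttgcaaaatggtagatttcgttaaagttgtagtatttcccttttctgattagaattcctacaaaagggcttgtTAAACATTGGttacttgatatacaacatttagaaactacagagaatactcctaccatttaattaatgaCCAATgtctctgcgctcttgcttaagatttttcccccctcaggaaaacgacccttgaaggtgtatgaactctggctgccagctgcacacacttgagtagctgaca
B3glct: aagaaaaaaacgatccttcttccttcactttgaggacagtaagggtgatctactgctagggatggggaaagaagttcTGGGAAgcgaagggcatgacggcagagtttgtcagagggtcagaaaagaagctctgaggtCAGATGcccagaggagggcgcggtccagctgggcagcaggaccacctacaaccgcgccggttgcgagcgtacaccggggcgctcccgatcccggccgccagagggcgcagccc
In these letters Cav1 holds TGGGAA, and on the other strand TATAAA and a GC box. Luzp2 holds CCAAT, and on the other strand TGTTTA and another CCAAT, which overlap where the capitals run together. B3glct holds TGGGAA and CAGATG. The Tac2 window holds none of the 6 motifs.

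No motif was shared by most of the windows. The GC box (GGGCGG) stood in 3 of 8 (Cybrd1, Rasl11b, Cav1), beside 32.7% of 32851 promoter windows of the same length. CCAAT stood in 2 (Rasl11b, Luzp2), beside 33.8%, and TATAAA in 1 (Cav1), beside 12.4%. The forkhead core TGTTTA was in 1 (Luzp2), beside 12.03%, the RBPJ core TGGGAA in 2 (B3glct, Cav1), beside 21.6%, and the E box CAGATG in 1 (B3glct), beside 14.4%. The windows differed widely in CpG dinucleotides, from 2 in Tac2 and 3 in Luzp2 to 30 in Rasl11b, with a median of 11.5 beside 6 for all promoters. These are matches of letters, not sites of binding.

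Among the membrane proteins, Cav1 encodes caveolin-1, the coat protein that shapes caveolae, small pits of the cell surface. It read 8.45, 12.4 and 4.85 CPM in circSlc45a4 knockdown replicates 1, 2 and 3, 0.586, 0.432 and 0.554 CPM in the mRNA knockdown and 0.335, 0.421 and 0.216 CPM in scramble. The scramble values rest on 7, 13 and 7 reads. With a log2 fold change of 4.72 ± 0.39 against scramble (26.3-fold) Cav1 had the largest difference of the 10, and also the widest spread among circSlc45a4 knockdown libraries, a coefficient of variation of 44.0%. The mRNA knockdown libraries all lay above those of scramble, but the difference of 0.70 ± 0.45 did not pass the test (adjusted p = 0.316). Its locus is chr6:17306335-17341452.

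Cav2, which encodes the partner that caveolin-1 forms oligomers with, moved alongside. It read 5.81, 7.63 and 4.22 CPM in the circSlc45a4 knockdown, 0.893, 0.566 and 0.886 CPM in the mRNA knockdown and 0.908, 0.681 and 0.556 CPM in scramble. It rose by 3.06 ± 0.31 against scramble (adjusted p = 1.63e-05, edgeR) and by 2.91 ± 0.30 against the mRNA knockdown (adjusted p = 2.98e-05). Replicate 2 was highest and replicate 3 lowest for Cav1 and Cav2 alike. The coat proteins of the cavin family did not join them: Cavin3 stood 0.25 ± 0.22 and Cavin4 0.08 ± 0.16 from scramble with adjusted p = 0.427 and 0.766, Cavin1 and Cavin2 were under the count filter, and the muscle caveolin Cav3 had 0 counts in all 9 libraries.

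Caveolae and membrane curvature genes other than Cav1 counted 10 tested of 13, with 3 higher and 1 lower than scramble in the circSlc45a4 knockdown, beside 14.1% higher and 13% lower among all genes tested. Besides Cav2 these were Ehd1 (0.40) and Pacsin3 (0.46), both higher, and Pacsin2 (-0.50), lower, all of which act in membrane bending. Against the mRNA knockdown 3 were higher and 1 lower, beside 13.8% and 12.3%. In the mRNA knockdown against scramble none was higher and 1 lower, beside 8.92% and 9.09%.

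Cav1 is abundant in endothelial cells. The 9 endothelial markers summed to 0.604 to 1.54 CPM in the circSlc45a4 knockdown, 0.949 to 1.25 CPM in the mRNA knockdown and 1.56 to 4.51 CPM in scramble. Of 3 markers tested, Esam was lower than scramble in the circSlc45a4 knockdown and none was higher, and against the mRNA knockdown none was called. The defining markers Tek and Tie1 had 0 counts in all circSlc45a4 knockdown libraries (at this depth up to 0.0671 CPM could go unseen in the deepest library), and Cdh5 read at most 0.0273 CPM there.

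Bves, also called Popdc1, encodes a membrane protein with a Popeye domain that binds cyclic AMP and is best known from heart and skeletal muscle. It read 29.7, 17.5 and 14.5 CPM in the circSlc45a4 knockdown, 1.56, 0.809 and 0.665 CPM in the mRNA knockdown and 2.25, 2.37 and 2.25 CPM in scramble. The log2 fold change was 3.16 ± 0.30 against scramble and 4.34 ± 0.32 against the mRNA knockdown. The mRNA knockdown fell below scramble without overlap, by 1.18 ± 0.34 on the log2 scale (adjusted p = 0.0296, edgeR). That call was lost when replicate 2 or 3 of the mRNA knockdown or any scramble replicate was left out, with adjusted p between 0.0555 and 0.100. It is encoded at chr10:45335772-45372479.

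Its family member Popdc3 read 1.34, 1.59 and 0.760 CPM in the circSlc45a4 knockdown, from 60, 58 and 34 reads. In the other groups it had between 0 and 11 reads per library. It rose by 2.85 ± 0.84 against scramble (adjusted p = 0.0234, edgeR) and by 3.43 ± 0.86 against the mRNA knockdown (adjusted p = 0.0107). Popdc3 passed the count filter only through the circSlc45a4 knockdown libraries, so these p-values are not independent of its high level there. Popdc2, the other family member, was under the count filter with at most 0.185 CPM. Of 14 tested genes for the Popeye family and effectors of cyclic AMP, 2 were higher and 2 lower than scramble, near the 14.1% and 13% of all genes. They were Popdc3 and Prkar2a (0.74), a regulatory subunit of protein kinase A, and on the lower side Arhgef25 (-0.44) and Prkacb (-0.36).

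Parm1 encodes a mucin-like membrane protein first described in the prostate as androgen-regulated. It read 16.3, 17.8 and 14.1 CPM in the circSlc45a4 knockdown, 0.865, 0.863 and 1.11 CPM in the mRNA knockdown and 0.622, 0.648 and 0.772 CPM in scramble. The circSlc45a4 knockdown mean of 16.1 ± 1.87 CPM (SD, n = 3) lay 4.54 ± 0.20 above scramble (23.3-fold) and 4.08 ± 0.19 above the mRNA knockdown (17.0-fold) on the log2 scale. The 3 mRNA knockdown libraries lay above the 3 of scramble, yet the difference of 0.46 ± 0.22 did not pass the test (adjusted p = 0.177). Among 5 tested sialomucins and mucin-like genes, Cd164 (0.70) was higher than scramble, and Podxl2 (-0.82) and Podxl (-0.50) were lower, beside 14.1% and 13% of all genes. Parm1 occupies chr5:91517615-91626894.

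Cybrd1 encodes duodenal cytochrome b, which reduces ferric iron at the cell surface with electrons from ascorbate. It read 17.6, 15.9 and 16.6 CPM in the circSlc45a4 knockdown, 2.20, 1.38 and 2.27 CPM in the mRNA knockdown and 0.526, 1.49 and 1.142 CPM in scramble. The circSlc45a4 knockdown libraries were close together, with a coefficient of variation of 5.12%, and lay 3.93 ± 0.28 above scramble and 3.09 ± 0.25 above the mRNA knockdown. The mRNA knockdown stood 0.84 ± 0.29 above scramble at adjusted p = 0.0613, with overlapping libraries. This difference passed the threshold without mRNA knockdown replicate 2 (adjusted p = 0.0289), without scramble replicate 2 (0.0393), with the Wald test of DESeq2 (0.0147) and with no count filter (0.00614). Cybrd1 maps to chr2:71117923-71142926.

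Genes of iron and heme handling did not share one direction. Of 25 tested, 6 were higher and 6 lower than scramble in the circSlc45a4 knockdown, beside 14.1% and 13% of all genes. Against the mRNA knockdown 6 were higher and 3 lower (13.8% and 12.3% of all genes), and in the mRNA knockdown 3 were higher and 3 lower than scramble (8.92% and 9.09%). Frrs1l, a relative of ferric reductases that takes part in AMPA receptor assembly, rose by 1.36 ± 0.09 (adjusted p = 8.24e-07). Steap2, a metalloreductase, rose by 1.07, and Cyb561d1, of the same cytochrome family as Cybrd1, by 0.78. Another member of that family, Cyb561a3, fell by 1.05. The ferritin subunits Fth1 and Ftl1, which store iron, fell by 0.31 and 0.26.

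Stac2 encodes an adaptor with an SH3 domain that binds voltage-gated calcium channels. Its groups formed 3 steps, with the mRNA knockdown at the bottom. It read 18.9, 17.9 and 16.2 CPM in the circSlc45a4 knockdown, 1.28, 2.05 and 1.52 CPM in the mRNA knockdown and 10.9, 7.91 and 7.32 CPM in scramble. The mRNA knockdown fell by 2.41 ± 0.20 on the log2 scale against scramble, or 5.33-fold lower (adjusted p = 8.69e-06, edgeR), with no overlap. The circSlc45a4 knockdown lay 1.03 ± 0.18 above scramble, the smallest such difference of the 10, and 3.44 ± 0.20 above the mRNA knockdown. Most of the difference between the knockdowns thus lay on the side of the mRNA knockdown. Its locus is chr11:98036623-98053462 on the minus strand.

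Its relatives Stac and Stac3 differed from scramble by 0.27 ± 0.33 and -0.05 ± 0.20 in the circSlc45a4 knockdown, and neither passed (adjusted p = 0.593 and 0.888). Of 16 tested genes for STAC proteins and calcium channel subunits, 3 were higher and 3 lower than scramble there, beside 14.1% and 13% of all genes, and 3 higher and 2 lower in the mRNA knockdown, beside 8.92% and 9.09%. Cacna1e, the pore of R-type channels, rose in both knockdowns, by 1.47 ± 0.18 and 1.25 ± 0.18. Cacna2d1, an accessory subunit, rose by 0.59 and 0.35, and Cacna1c, the pore of an L-type channel, by 0.61 and 0.62. Cacna1b, the N-type pore, fell by 0.47 and 0.37. The comparisons with scramble share the scramble libraries.

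Gas7 encodes an F-BAR protein that binds membrane and actin and is known for neurite outgrowth in cerebellar neurons. It had the highest CPM of the 10, at 231, 195 and 183 in the circSlc45a4 knockdown, 68.3, 70.2 and 76.4 in the mRNA knockdown and 31.0, 41.1 and 41.3 in scramble. The circSlc45a4 knockdown lay 2.42 ± 0.12 above scramble and 1.502 ± 0.12 above the mRNA knockdown. Gas7 also rose in the mRNA knockdown, by 0.92 ± 0.12 or 1.89-fold (adjusted p = 1.84e-04, edgeR), with no overlap of libraries. The 10 genes were put together as raised by the circular RNA's knockdown alone, and for Gas7 that does not hold. Gas7 (chr11:67455437-67688990) shares 66 exonic bases with Glp2r on the opposite strand, whose 102 reads over the 9 libraries compare with 36706 for Gas7.

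The 17 tested F-BAR and growth arrest-specific genes split evenly in the circSlc45a4 knockdown, with 4 higher and 4 lower than scramble, beside 14.1% and 13% of all genes. Against the mRNA knockdown 4 were higher and none lower, beside 13.8% and 12.3%, and in the mRNA knockdown 2 were higher and 3 lower, beside 8.92% and 9.09%. The kinase gene Fer, whose product has an F-BAR domain, rose by 1.17 ± 0.09 in the circSlc45a4 knockdown and by 0.93 in the mRNA knockdown. Gas1, a membrane protein that binds Sonic hedgehog, rose by 0.52 in the circSlc45a4 knockdown. Gas2 fell by 0.66 and 0.65 in the respective knockdowns, and Gas6, a ligand of the TAM receptors, by 1.33 and 1.17.

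Rasl11b encodes a small GTPase of the Ras family. It read 73.4, 61.1 and 54.5 CPM in the circSlc45a4 knockdown, 15.2, 12.9 and 11.96 CPM in the mRNA knockdown and 16.1, 18.5 and 16.1 CPM in scramble. The log2 fold change was 1.90 ± 0.13 against scramble and 2.24 ± 0.13 against the mRNA knockdown. The mRNA knockdown libraries all lay under those of scramble, with a difference of -0.34 ± 0.13 that did not pass the test (adjusted p = 0.0901). It passed without mRNA knockdown replicate 1 (-0.44, adjusted p = 0.0425) and with no count filter (-0.35, adjusted p = 0.0428). Its short locus is chr5:74195286-74199481.

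Its closest relative by name, Rasl11a, did not follow it. It differed by -0.45 ± 0.29 from scramble (adjusted p = 0.278) and fell by 1.15 ± 0.28 in the circSlc45a4 knockdown against the mRNA knockdown (adjusted p = 0.00942). Of 9 tested small Ras-like GTPases, 2 were higher than scramble in the circSlc45a4 knockdown and none lower, beside 14.1% and 13% of all genes. They were Diras2 (1.24 ± 0.25) and Rem2 (0.66 ± 0.13), an inhibitor of calcium channels, which rose further, by 1.74 ± 0.13, in the mRNA knockdown.

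B3glct encodes the enzyme that adds glucose to O-linked fucose on thrombospondin type 1 repeats, after the fucose is placed by the product of Pofut2. It read 99.3, 96.2 and 94.5 CPM in the circSlc45a4 knockdown, 32.7, 34.1 and 34.0 CPM in the mRNA knockdown and 36.8, 35.2 and 32.7 CPM in scramble. Its libraries agreed most closely of the 10, with a coefficient of variation of 2.53% in the circSlc45a4 knockdown. The log2 fold change was 1.47 ± 0.08 against scramble and 1.52 ± 0.08 against the mRNA knockdown, and -0.05 ± 0.08 between the other groups (adjusted p = 0.687). Pofut2 stood -0.13 ± 0.12 from scramble (adjusted p = 0.436). B3glct maps to chr5:149678230-149762599.

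Of 15 tested genes for O-fucose and Notch glycosylation, 3 were higher and 3 lower than scramble in the circSlc45a4 knockdown, beside 14.1% and 13% of all genes, and 1 higher and 4 lower than the mRNA knockdown, beside 13.8% and 12.3%. The Fringe enzymes, which extend O-fucose on Notch, moved apart. Lfng rose by 1.08 ± 0.19 and Mfng fell by 0.89 ± 0.10. Of 35 tested genes whose products carry thrombospondin type 1 repeats, 16 were higher and 2 lower than scramble in the circSlc45a4 knockdown, beside 14.1% and 13% of all genes. Against the mRNA knockdown 14 were higher and 4 lower, beside 13.8% and 12.3%, and in the mRNA knockdown 9 were higher and 3 lower, beside 8.92% and 9.09%. The medians were 0.64, 0.30 and -0.02. The netrin receptor gene Unc5b read 111, 116 and 69.9 CPM in the circSlc45a4 knockdown against 4.82 to 6.503 CPM in scramble, and rose by 4.13 ± 0.22. Ccn2, a matricellular protein and a marker of subplate neurons, rose by 1.94 ± 0.30, and Adgrb2 and Adgrb3, adhesion receptors of neurons, by 1.00 and 0.79.

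Tac2 encodes the precursor of neurokinin B, a tachykinin peptide whose receptor is the product of Tacr3. It read 11.5, 8.61 and 6.97 CPM in the circSlc45a4 knockdown, 0.586, 0.647 and 0.388 CPM in the mRNA knockdown and 0.430, 0.616 and 0.370 CPM in scramble. The scramble values rest on 9, 19 and 12 reads. The log2 fold change was 4.24 ± 0.30 against scramble (18.9-fold) and 4.05 ± 0.29 against the mRNA knockdown (16.6-fold), while the other groups overlapped (0.19 ± 0.34, adjusted p = 0.753). Tac2 is found at chr10:127724478-127731768.

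The peptide's receptor was hardly read. Tacr3 had at most 0.134 CPM in any library, Tac1 at most 0.278 CPM, and Tac4 and Tacr2 had 0 counts throughout. Tacr1, the receptor best known for substance P, was the only other tachykinin gene with enough reads, and its difference of -0.44 ± 0.45 from scramble did not pass (adjusted p = 0.504). Among 7 tested precursors of other neuropeptides none was higher than scramble in the circSlc45a4 knockdown, and Adcyap1 was lower (-1.04), beside 14.1% and 13% of all genes.

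Luzp2 encodes a leucine zipper protein expressed in brain whose function is little known. It read 62.6, 58.7 and 49.1 CPM in the circSlc45a4 knockdown, 7.73, 7.61 and 7.59 CPM in the mRNA knockdown and 8.51, 6.45 and 8.03 CPM in scramble. The other groups had nearly the same mean, 7.64 ± 0.0770 and 7.66 ± 1.08 CPM (SD, n = 3), and the test between them gave 0.00 ± 0.13 (adjusted p = 0.996). The circSlc45a4 knockdown lay 2.90 ± 0.13 above scramble and 2.89 ± 0.13 above the mRNA knockdown. The gene spans chr7:54835498-55268885, the longest locus of the 10.

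Over the 10 genes, the mRNA knockdown against scramble gave 1 higher call (Gas7) and 2 lower calls (Stac2, Bves), or 3 of 10, beside 18% of all genes tested called in either direction. The median was 0.09, beside 0.01 over all genes. Libraries of these groups did not overlap for 6 of the 10 (Parm1, Gas7, Cav1, Bves, Stac2 and Rasl11b), beside 36.1% of all genes. Parm1, Cav1, Cybrd1, Tac2, Luzp2, Rasl11b and B3glct were not called. A p that misses the threshold does not show that levels were equal, and for Cav1 the SE of 0.45 leaves room for a sizeable difference.

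**Figure D2:**
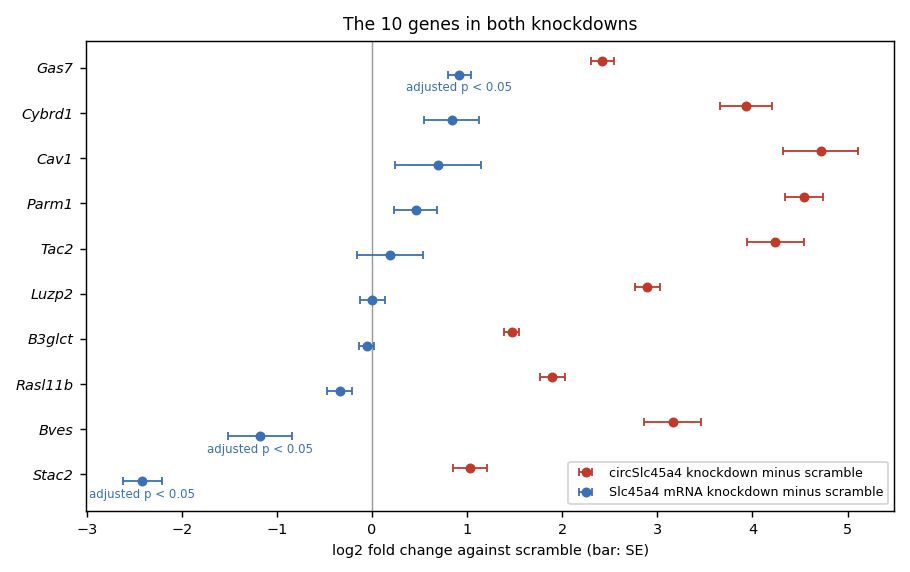
Log2 fold change against scramble (x axis, bars are SE) for the 10 genes, with circSlc45a4 knockdown in red and Slc45a4 mRNA knockdown in blue, ordered by the blue value. The red points lie between 1.03 and 4.72, and the blue points between -2.41 for Stac2 and 0.92 for Gas7. Blue text marks adjusted p under 0.05 in the mRNA knockdown.

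Per kilobase of exon, the scale on which different genes can be compared, the mean levels in the circSlc45a4 knockdown ran from 29.1 CPM per kb for Rasl11b to 2.49 for Cav1. Between them came B3glct (20.1), Gas7 (17.9), Luzp2 (10.1), Tac2 (6.56), Stac2 (5.63), Bves (4.46), Parm1 (3.17) and Cybrd1 (3.12). The last pair differed by less than their spread. In scramble Rasl11b (7.83) and B3glct (7.27) also led, and Parm1 (0.134) and Cav1 (0.0941) were lowest. There Cav1 exceeded only 4.29% of the protein-coding genes tested and Parm1 6.197%, while in the circSlc45a4 knockdown they exceeded 32.3% and 36.5%. Rasl11b passed from above 58.6% of these protein-coding genes to above 88.8%.

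The circSlc45a4 knockdown libraries differed among themselves in a common way. Replicate 1 was highest for 8 of the 10 genes and replicate 2 for the others, Parm1 and Cav1. Replicate 3 was lowest for 9, with Cybrd1 as the exception. The share of all genes tested that had these orders was not counted, so they cannot be called particular to the 10. On the log2 scale replicate 1 lay 0.60 above the group mean for Bves and 0.38 for Tac2 but 0.04 for B3glct. The median coefficient of variation of the 10 was 12.3% beside 10.7% for all genes. Leaving out any single library moved the log2 fold change against scramble most for Cav1, between 4.35 and 5.0.

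Markers of Cajal-Retzius cells, the Reelin-secreting neurons at the surface of the cortex, had the same order of libraries. The 10 markers summed to 394, 229 and 128 CPM in circSlc45a4 knockdown replicates 1, 2 and 3, against 31.1 to 63.0 CPM in the mRNA knockdown and 56.7 to 115 CPM in scramble. Of 9 tested, 3 were higher and 1 lower than scramble, beside 14.1% and 13% of all genes. Reln itself read 244, 137 and 70.2 CPM and rose by 2.15 ± 0.41 (adjusted p = 0.00182), Ebf1 and Nhlh2 rose by 2.29 and 1.55, and Ebf3 fell by 2.15. Trp73, a defining marker, read at most 0.713 CPM in any library and stood -0.02 ± 0.55 from scramble, and Lhx5 was under the count filter. Bves, Tac2, Gas7, Rasl11b, Luzp2, Stac2 and B3glct ran in the order of replicates 1, 2 and 3 as well. How common that order is among all genes was not counted, and what part these cells have in those levels was not tested.

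Markers of other cell types were counted against scramble, beside a background of 14.1% higher and 13% lower. The 13 radial glia markers summed to 2026 to 2306 CPM in the circSlc45a4 knockdown, 1457 to 1785 CPM in the mRNA knockdown and 1377 to 1481 CPM in scramble, with 8 of 13 higher than scramble and none lower. The 9 markers of astrocytes and oligodendrocyte precursors summed to 30.9 to 43.4 CPM, against 11.2 to 18.4 and 15.4 to 20.5 CPM, with 5 of 6 tested higher, among them Aqp4 (2.47 ± 0.36). Gfap, a defining marker, was near its floor in scramble, at most 0.0648 CPM. A marker so low in scramble can pass the count filter only through the knockdown libraries, so such a count is not independent of high levels there. Of 9 deep-layer neuron markers 4 were higher and 2 lower, and of 7 tested subplate markers 4 were higher and 1 lower. Of 8 basal progenitor markers none was higher and 4 were lower, of 10 newborn neuron markers 1 was higher and 2 lower, and of 5 tested markers of ventral inhibitory neurons none was higher and 3 were lower. Microglial markers summed to 6.69 to 11.3, 3.40 to 8.39 and 2.32 to 4.11 CPM, with 2 of 7 tested higher, and meningeal markers stayed under 0.939 CPM in the circSlc45a4 knockdown. The part of these cells in the levels of the 10 genes was not tested.

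Each gene's nearest companions were sought as the root mean square difference of log2 CPM, centred on scramble, over the 9 libraries. They describe likeness of pattern and nothing more. Luzp2 was nearest to Foxp2 (0.223) and Myo1a (0.242), Gas7 to Ryr2 (0.230) and Dusp26 (0.232), Rasl11b to Slc17a7 (0.216) and Pcdh7 (0.218), and B3glct to Tnfaip3 (0.1497) and Galnt7 (0.179). Foxp2, a transcription factor of deep-layer neurons, read 159, 122 and 107 CPM in the circSlc45a4 knockdown, 18.9 to 25.03 CPM in the mRNA knockdown and 18.5 to 24.5 CPM in scramble. Slc17a7, the vesicular glutamate transporter of cortical neurons, read 172, 123 and 84.8 CPM against 26.6 to 32.8 and 35.4 to 39.1 CPM.

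Parm1, Cybrd1 and Cav1 each had Tnc and Itga9 as their nearest pair outside the 10, at 0.444 to 0.683. Tnc, which encodes tenascin-C, read 457, 450 and 472 CPM in the circSlc45a4 knockdown, 53.6, 52.4 and 85.4 CPM in the mRNA knockdown and 41.1, 48.1 and 22.3 CPM in scramble, and Itga9 encodes an integrin that binds tenascin-C. Outside the 10, Tac2 was nearest to Hmcn1 (0.533), a matrix protein, and Unc5b (0.5997). Bves was nearest to Reln (0.696) and Stac2 to Ccnd3 (0.508), a cyclin gene that fell by 1.73 ± 0.12 in the mRNA knockdown. Within the 10, Rasl11b and B3glct were closest (0.327), then Parm1 and Cav1 (0.385), and Cav1 and Stac2 were farthest apart (2.66). Parm1, Cav1 and Tac2 lay nearer to each other (0.385 to 0.494) than to their companions outside the 10.

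**Figure D3:**
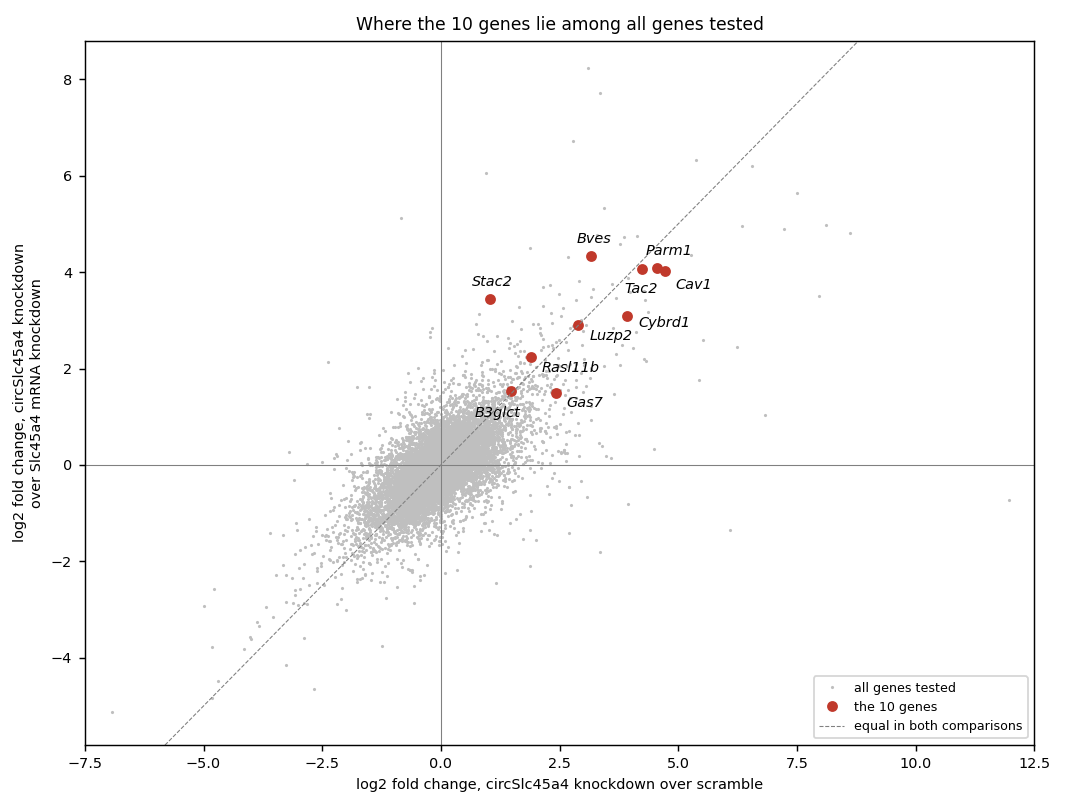
Log2 fold change of the circSlc45a4 knockdown over scramble (x axis) and over the Slc45a4 mRNA knockdown (y axis) for all 17760 genes tested (grey) and the 10 genes (red), which were picked from the upper right. Both axes use the circSlc45a4 knockdown libraries, so the points lean along the dashed line of equality by construction. Stac2 and Bves lie above that line, and Gas7, Cybrd1 and Cav1 below it.

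The chromosomal surroundings of the genes were read from the nearest tested protein-coding gene on each side, 20 in all, a choice made after the values of the 10 were seen. Of the 20, 6 were higher in the circSlc45a4 knockdown than in both other groups at adjusted p under 0.05 in each, beside 6.81% of all genes tested. Against scramble 6 were higher and 3 lower, beside 14.1% and 13% of all genes, with a median of 0.03. Within 20 kb of a gene lay 8 neighbours, of which 4 were among the 6: Myo1a and Zbtb39 beside Tac2, Cav2 beside Cav1 and Popdc3 beside Bves. Popdc3 and Gsg1l2, both among the 6, had at most 11 and 4 reads per library outside the circSlc45a4 knockdown. They passed the count filter only through that group, so they counted as neighbours because they were high there. The share of 6 in 20 is therefore a description only.

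Myo1a, which encodes a class I myosin, lies 3.538 kb from Tac2 on the same strand. It read 25.9, 19.95 and 12.1 CPM in the circSlc45a4 knockdown, 2.32, 2.99 and 1.91 CPM in the mRNA knockdown and 2.53, 2.20 and 2.75 CPM in scramble, and rose by 2.95 ± 0.26 against scramble. Its replicates ran in the order of those of Tac2. On the other side, 7.77 kb away, Zbtb39 rose by 0.70 ± 0.10. Cav2 lies 17.22 kb from Cav1 and Popdc3 17.32 kb from Bves, both on the strand of their neighbour, and both pairs are also relatives in sequence family.

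The remaining pair lay farther off. Usp46, 126.855 kb from Rasl11b, read 84.9, 86.0 and 73.7 CPM in the circSlc45a4 knockdown and rose by 1.88 ± 0.10 against scramble, and by 0.72 ± 0.10 in the mRNA knockdown. Gsg1l2, 85.618 kb from Gas7, rose by 3.16 ± 0.83 from 33, 16 and 21 reads in the circSlc45a4 knockdown. Other close neighbours were not higher: Lin28b, 4.141 kb from Bves, stood -1.06 ± 0.78 from scramble (adjusted p = 0.346), Scfd2, 5.335 kb from Rasl11b, fell by 0.64 ± 0.14, and Rpl19, 6.131 kb from Stac2, stood at 0.03 ± 0.09. Met, on the other side of Cav1, fell by 1.32 ± 0.36. The neighbours of Parm1, Luzp2, Cybrd1, Stac2 and B3glct stood between -0.25 (Mthfd2l beside Parm1, adjusted p = 0.0412) and 0.06 (Rchy1, also beside Parm1) from scramble.

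**Figure D4:**
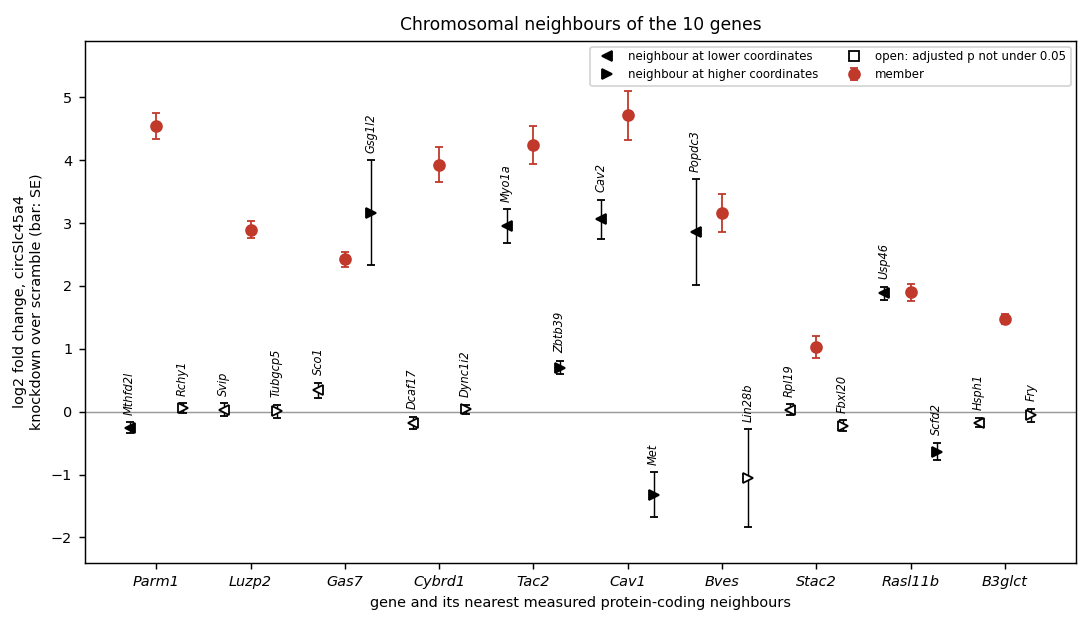
Log2 fold change of the circSlc45a4 knockdown over scramble (y axis, bars are SE) for each of the 10 genes (red circles) and its nearest tested protein-coding neighbours at lower and higher coordinates (black triangles, filled where adjusted p is under 0.05). Myo1a, Cav2, Popdc3, Usp46 and Gsg1l2 stand at 1.88 or above, and most other neighbours lie near 0.

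Over all role lists, 154 genes related to the 10 were tested. In the circSlc45a4 knockdown 40 were higher and 24 lower than scramble, 35 higher and 22 lower than the mRNA knockdown, and in the mRNA knockdown 24 were higher and 17 lower than scramble. The medians were 0.08, 0.10 and 0.01. These shares stand beside 27.1%, 26.1% and 18% of all genes called in either direction.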

How the data were processed

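The authors deposited 1 table of raw, whole-number read counts by gene ID for the 9 libraries. Per the submitters' processing notes, the tools were STAR 2.4.2a, DESeq2 and bcl2fastq 2.17.1.14, with build mm10. Which program counted reads, whether it used strand and which annotation it used is not given in the sources used here, so genes that overlap on opposite strands may share reads. Gene IDs were joined to GENCODE M21 (GRCm38) without version suffix, which gave a symbol for 53274 of 53379.

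Low genes were removed with filterByExpr (edgeR 4.0.16, minimum count 10), which all 10 genes passed, and library sizes were scaled by TMM. The quasi-likelihood fit had a mean per group over the 9 libraries, with 6 residual degrees of freedom and a common biological coefficient of variation of 13.9%. Benjamini-Hochberg adjustment ran over all 17760 genes, with a threshold of 0.05. The SE was taken from the F statistic, as log2 fold change over its square root. The test was checked on simulated data. Depth limits what a count of 0 shows. Its upper limit was taken as 3 counts, which equal between 0.0671 and 0.143 CPM depending on the library, for counting error only.

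The 10 genes and the gene lists were chosen with earlier results of these data known. Besides the 10, the text names their family relatives, up to 4 genes of each list with the smallest p in a comparison, the leading genes outside the 10, the nearest genes by pattern, defining cell type markers and chromosomal neighbours. The nearest genes and leading genes were taken at an average log2 CPM of at least 1, without predicted models. The neighbours were added after the values were seen. Of 194 symbols in the lists for the genes' roles, 193 were found in the table, 4 of them under an older symbol. Promoter windows come from RefSeq (GRCm38.p6). Alternatives were other size factors, other count filters, the Wald test of DESeq2 1.42.0, a replicate block and leaving out each library.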

Additional observations from a re-analysis of the deposited data

How the results depend on the processing

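In the comparisons with the circSlc45a4 knockdown, the log2 fold changes of the 10 genes kept their direction in every alternative run. That follows from how the genes were picked and is no check of it. Between the mRNA knockdown and scramble the direction was also kept, except for the value of Luzp2, which lay at 0 within its error. It turned to -0.0067 with RLE factors, -0.0019 with no filter, -0.0059 with DESeq2, and to between -0.112 and 0.0764 when each library was left out, below 0 without circSlc45a4 knockdown replicate 1 (-0.0107) or 2 (-0.0107), mRNA knockdown replicate 1 (-0.0016) or scramble replicate 2 (-0.112). Leaving out each library gave medians of 2.81 to 3.18 against scramble, the lowest without circSlc45a4 knockdown replicate 1, 3.23 to 3.31 against the mRNA knockdown and 0.02 to 0.18 between the other groups. It gave 3386 to 5548, 3059 to 4610 and 1760 to 3083 genes called in these comparisons, the lowest of the last 2 without circSlc45a4 knockdown replicate 1 (3059) and scramble replicate 2 (1760). Related genes called numbered 51 to 71, 41 to 57 and 24 to 38, the lowest of the last without scramble replicate 2. Of the 10 genes, 2 to 4 were called in the mRNA knockdown, and 5 with no filter (Cybrd1 and Rasl11b besides). The cause was not tested. Replicate numbers did not pair the libraries across all groups. Same-numbered libraries correlated at -0.141 to 0.115 in their deviations from the group means, and not every library correlated best with its own number. Between the knockdowns, same-numbered libraries correlated weakly at 0.0815 to 0.115, and differently numbered ones at -0.0705 to -0.0280. With the replicate block 4412, 4189 and 2713 genes were called, and it changed no call among the 10 genes. Depth limits Tac2, Cav1 and Popdc3, which had fewer than 20 reads in each scramble library.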
